A study of Mus musculus with 12 samples.

Results

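The genes studied were the 8 enzymes of the lower glycolytic steps and of lactate formation, namely Gapdh, Pgk1, Pgam1, Eno1, Eno2, Pkm, Ldha and Ldhb. They were taken by gene name and not by a measured value, although earlier results of these data were known. All 8 were found among the 56748 entries of the scaled count table and among the 55372 genes of the TPM table (a share of the library corrected for transcript length). RNA came from mice at 2 months of age, either lacking Abca4 (Abca4-/-, here Abca4Ko) or littermate controls (Abca4+/+), and animals of both genotypes also carried the RiboTag allele and i75-Rod-Cre. RiboTag puts a tag on a ribosomal protein where Cre is present, and this Cre is driven by the rhodopsin promoter, which limits the tag to rods. In each genotype, 3 libraries came from the tissue lysate before the pull-down (retina) and 3 from messages on tagged ribosomes (rod TRAP, translating ribosome affinity purification), with cycloheximide given by perfusion to stop ribosomes from running off. The sources do not say whether a library held 1 animal or several, so the p-values below measure the spread between libraries.

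In the lower part of glycolysis, GAPDH oxidizes glyceraldehyde 3-phosphate, PGK1 and pyruvate kinase each make ATP, PGAM1 moves a phosphate group, and enolase makes phosphoenolpyruvate. Lactate dehydrogenase then reduces pyruvate to lactate and restores the NAD+ that GAPDH needs. Photoreceptors are known for forming lactate from most of their glucose even with oxygen at hand, and their main pyruvate kinase is PKM2, a form whose activity can be regulated. LDHA subunits are classically tied to lactate formation and LDHB subunits to lactate use, and enolase 2 is the neuronal isoenzyme beside the widely expressed enolase 1.

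On GRCm38, Gapdh, Eno2 and Ldhb lie on chromosome 6, Eno1 on chromosome 4, Ldha on chromosome 7, Pkm on chromosome 9 (59656368 to 59679375), Pgam1 on chromosome 19 and Pgk1 on the X chromosome. PKM1 and PKM2 are made from the Pkm gene by a choice between 2 exons of 167 bases each, both wholly coding. They are shown because this choice sets the PKM1 and PKM2 proteins apart, and the deposited values, given per gene, cannot separate the messages. On GRCm38 the upstream exon, used in PKM1, lies on the plus strand at chr9:59675029-59675195 and the downstream exon, used in PKM2, at chr9:59675568-59675734. They match at 103 of 167 positions (61.68%), and capitals mark the 64 positions at which they differ.
PKM1 exon: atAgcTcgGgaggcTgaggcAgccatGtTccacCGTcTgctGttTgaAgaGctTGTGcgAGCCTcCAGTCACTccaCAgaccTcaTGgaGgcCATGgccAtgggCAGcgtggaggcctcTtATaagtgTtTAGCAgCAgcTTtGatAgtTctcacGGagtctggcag
PKM2 exon: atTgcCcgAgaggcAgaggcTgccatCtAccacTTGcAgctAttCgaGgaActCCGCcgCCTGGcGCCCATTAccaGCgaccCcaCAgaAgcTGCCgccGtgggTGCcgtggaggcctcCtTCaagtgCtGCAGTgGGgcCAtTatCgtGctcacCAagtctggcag

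The 250 bases before the annotated start are shown for Ldha and Ldhb, 1 of the 2 pairs of isoenzymes (beside Eno1 and Eno2) that moved in opposite directions between rod ribosomes and retina. They are from RefSeq on GRCm38.p6, at chr7:46845554-46845803 on the plus strand for the first of 2 Ldha starts and at chr6:142507958-142508207 on the minus strand for Ldhb. Capitals mark the letters ACGTG on either strand, a form of the core of the site bound by hypoxia-inducible factors. The other form of that core, GCGTG, was not counted or marked, and the Ldhb window holds it.
Ldha: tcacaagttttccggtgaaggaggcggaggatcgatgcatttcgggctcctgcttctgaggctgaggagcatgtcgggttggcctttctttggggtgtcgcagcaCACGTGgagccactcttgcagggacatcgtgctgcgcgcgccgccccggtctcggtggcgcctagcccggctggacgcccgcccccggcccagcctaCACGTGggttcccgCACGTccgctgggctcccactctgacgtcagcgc
Ldhb: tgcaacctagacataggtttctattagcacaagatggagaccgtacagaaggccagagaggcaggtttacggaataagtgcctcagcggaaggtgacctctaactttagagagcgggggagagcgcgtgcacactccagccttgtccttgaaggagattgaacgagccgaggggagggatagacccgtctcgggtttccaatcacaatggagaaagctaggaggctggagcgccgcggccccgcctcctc

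The Ldha window held 5 matches of ACGTG, and the Ldhb window held 0. The 2 matches of CACGTG in Ldha, the E-box letters, each contain ACGTG on both strands and account for 4 of the 5. Of 32851 windows of this length, 16.57% held ACGTG and 6.021% held CACGTG. Among the other enzymes, ACGTG occurred 2 times before the Pgk1 start, 1 time before that of Pgam1 and 1 time before the second Pkm start, and 0 times before those of Gapdh, Eno1 and Eno2 and before the first Pkm start. The letters GGGCGG, the GC box, occurred before at least 1 start of Ldha, Pgk1, Pkm and Eno1 and in 32.74% of all windows. TATAAA, the TATA box, occurred before the Eno2 start alone among the 8 genes and in 12.37% of windows, and TAATCC, letters bound by the photoreceptor factor CRX, occurred before the second Ldha start alone and in 6.252% of windows. Both strands were searched for each, and these matches are letters in a window and not measured sites.

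Libraries were scaled by the authors to a common total within each fraction, so that rod TRAP libraries held from 17096515 to 17097707 scaled counts and retina libraries from 17860761 to 17862326. Abca4, the targeted gene, had 53193 to 61017 scaled counts in control rod TRAP, and 195 and 365 in Abca4Ko replicates 1 and 2 but 13156 in Abca4Ko replicate 3, which is 23.5% of the control mean. In retina the values were 37619 to 38929 in control, 153 and 366 in Abca4Ko replicates 1 and 2 and 8124 (21.3%) in replicate 3. The enzyme counts between genotypes are therefore given also without the libraries labelled Abca4Ko replicate 3. The rod label held, since 20 of 20 rod marker genes were higher in rod TRAP than in retina in each genotype.

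Messages of the 8 enzymes took 1.86% ± 0.040 of all TPM in control rod TRAP, 1.73% ± 0.092 in Abca4Ko rod TRAP, 1.62% ± 0.15 in control retina and 1.36% ± 0.081 in Abca4Ko retina (mean ± SD, n = 3 each). In each of the 4 groups the order of mean TPM was Gapdh, Pkm, Ldha, Pgam1, Eno1, Pgk1, Eno2 and Ldhb. Neighbours in that order did not overlap between libraries in any group, except Eno2 and Ldhb in Abca4Ko retina. In control rod TRAP Gapdh ranked 9 among all genes by mean TPM and Pkm ranked 16, while Eno2 ranked 551 and Ldhb 1068. In control retina Eno2 and Ldhb ranked 267 and 409. The order among these 8 genes was thus the same in both fractions, but it turned when Eno1 was counted with its near copy Eno1b, at 3542 ± 65 TPM in control rod TRAP and 3109 ± 435 TPM in control retina (SD, n = 3 each), above Ldha in each. The distance between the abundant and the scarce isoenzymes was larger on rod ribosomes.

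**Figure D1:**
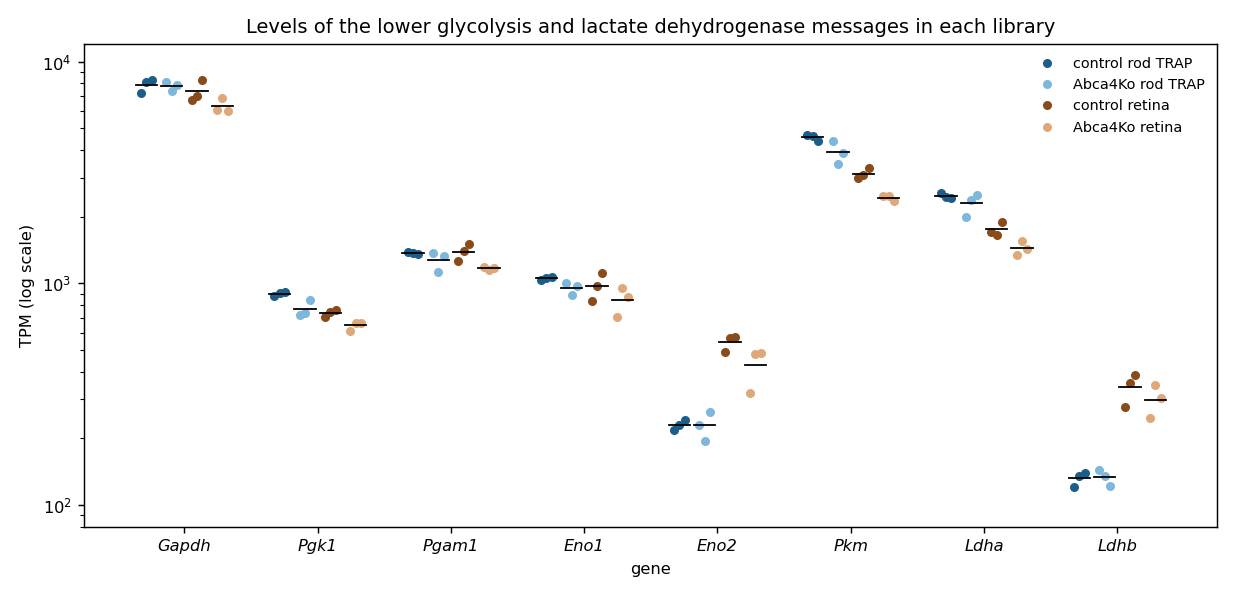
TPM of each enzyme message on a log scale, with 1 point for each library, colours for the 4 groups and a bar at the mean (n = 3). Gapdh lies between 5978 and 8297 TPM in all 12 libraries, and Eno2 and Ldhb are the only genes whose rod TRAP points lie below all of their retina points.

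The first comparison asked which of these messages rods carry on their ribosomes in a larger or smaller share than the whole retina. In control mice 8 of 8 enzymes were called by the limma test at the 0.05 threshold, 6 of them higher and 2 lower on rod ribosomes, in a comparison in which 75.4% of all 16286 genes tested were called (36.6% higher and 38.8% lower). All 8 also had groups that did not overlap in log2 CPM, as had 79.7% of genes, and in TPM 5 of 8 did not overlap (2 of them lower), against 75.1% of genes (46.3% lower). The counts are near the background, so the sizes of the differences are given for each gene. The enzymes that were higher were Pkm, Ldha, Pgk1, Eno1, Gapdh and Pgam1, and those that were lower were Eno2 and Ldhb. Their median difference was 0.47 on the log2 scale, against −0.03 over all genes tested. In bulk samples fewer cells of a type and less RNA per cell cannot be told apart.

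Pkm, pyruvate kinase of the last ATP-making step, stood at 4683, 4601 and 4366 TPM in control rod TRAP and at 2978, 3074 and 3302 TPM in control retina. All rod TRAP libraries were above all retina libraries, and the log2 difference was 0.90 (limma adjusted p = 1.67e-05, SE 0.12). Ldha, the lactate-forming dehydrogenase, had 2567, 2451 and 2418 TPM in rod TRAP and 1707, 1658 and 1889 TPM in retina. Its groups also did not overlap, with a log2 difference of 0.82 (limma adjusted p = 6.98e-05, SE 0.13). Pgk1, the first ATP-making enzyme, had 875, 909 and 913 TPM in rod TRAP and 707, 741 and 762.5 TPM in retina, again apart, with a log2 difference of 0.64 (limma adjusted p = 0.000259, SE 0.12).

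Gapdh, Eno1 and Pgam1, which carry out the oxidation, the dehydration and the phosphate shift, were called by smaller margins. Gapdh had 7223, 8095 and 8221 TPM in rod TRAP and 6710.2, 7026 and 8297 TPM in retina, so its TPM groups overlapped, although its scaled counts gave a log2 difference of 0.43 (limma adjusted p = 0.0108, SE 0.13). Eno1 had 1037, 1062 and 1073 TPM against 829.5, 977 and 1113 TPM, overlapping likewise, with a log2 difference of 0.51 (limma adjusted p = 0.00338, SE 0.13). Pgam1 was the closest to no difference, with 1382, 1375.5 and 1364 TPM against 1262, 1398 and 1509 TPM and a log2 difference of 0.30 (limma adjusted p = 0.0452, SE 0.12). The Pgam1 call was lost when any of 5 of the 6 libraries was left out, with limma adjusted p up to 0.148. Over all 15 alternatives, these included, the call stayed in 4 and was lost in 9, and the sign turned in 2.

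Eno2, the neuronal enolase, had 219.5, 231 and 241 TPM in control rod TRAP and 491, 567 and 572 TPM in control retina. Every rod TRAP library was below every retina library, and the log2 difference was −1.13 (limma adjusted p = 1.78e-06, SE 0.12). Ldhb, the subunit tied to lactate use, had 121, 136 and 139 TPM in rod TRAP and 278, 357.5 and 385 TPM in retina, also without overlap, with a log2 difference of −1.04 (limma adjusted p = 2e-05, SE 0.14). These were the lower members of both isoenzyme pairs among the 8 genes.

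Part of this picture depended on how the fractions were scaled to each other. With the authors' totals in place of the trimmed mean, the median of all genes moved from −0.03 to −0.62 on the log2 scale and the calls over all genes from 5968 higher and 6317 lower to 3415 higher and 9549 lower. The log2 difference of Gapdh became −0.22, of Eno1 −0.14, of Pgam1 −0.35 and of Pgk1 −0.0029, while Pkm (0.25), Ldha (0.18), Eno2 (−1.77) and Ldhb (−1.68) kept their signs. Among the latter, Ldha was no longer called (limma adjusted p = 0.142), and among the former Pgam1 was called lower. On log2(TPM + 1) Pgam1 turned to −0.013, Gapdh (0.099) and Eno1 (0.13) were not called, the median of all genes was −0.25, and 3868 genes were higher and 6297 lower. Relative to the median of all genes, the 6 enzymes were higher and the 2 were lower under each of these scalings.

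**Figure D2:**
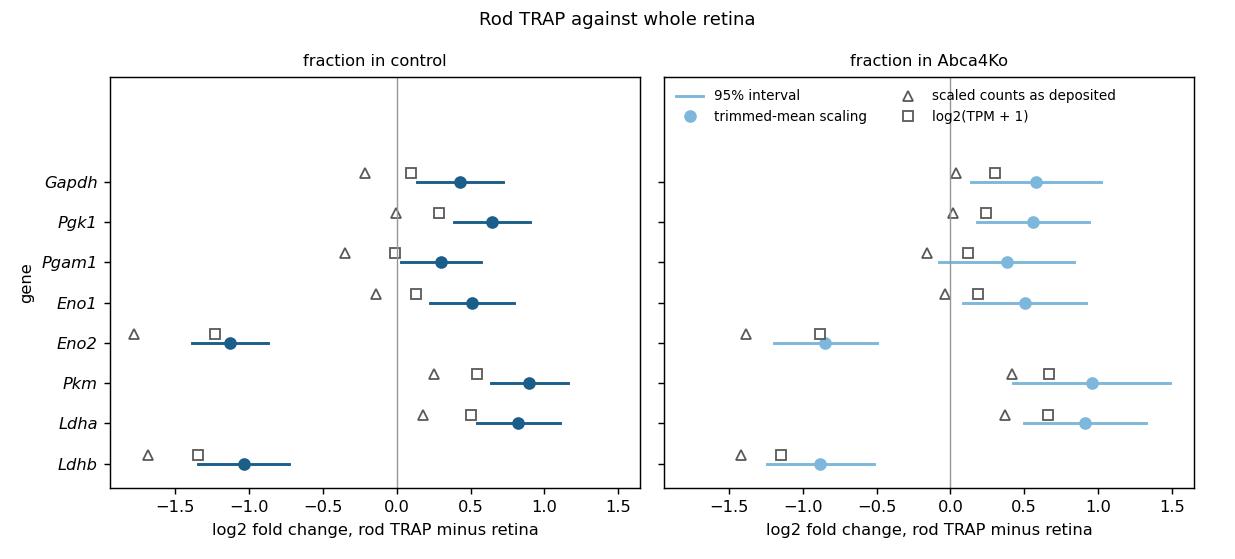
Log2 fold change of rod TRAP against retina for each enzyme in control (left) and Abca4Ko (right) mice, with filled points and 95% intervals from limma after trimmed-mean scaling, triangles for the scaled counts as deposited and squares for log2(TPM + 1). Eno2 and Ldhb lie left of 0 under all 3 scalings, Pkm and Ldha lie right of 0, and Gapdh, Pgk1, Pgam1 and Eno1 move across or onto 0 with the deposited scaling in control mice.

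The same comparison in Abca4Ko mice called 7 of 8 enzymes, with 5 higher and 2 lower, where 64.1% of 16036 genes tested were called (30.4% higher and 33.7% lower). In log2 CPM all but Pgam1 did not overlap, as for 69.4% of genes, and in TPM 6 of 8 did not (2 of them lower), against 58.1% of genes (35.5% lower). Pkm had 4376.5, 3448 and 3852 TPM in Abca4Ko rod TRAP and 2465, 2484.5 and 2355 TPM in Abca4Ko retina, with a log2 difference of 0.96 (limma adjusted p = 0.0048, SE 0.24). Ldha had 2001, 2377 and 2506 TPM against 1348, 1557 and 1429 TPM, a log2 difference of 0.91 (limma adjusted p = 0.00134, SE 0.19). Neither gene overlapped between fractions. Gapdh (0.58), Pgk1 (0.56) and Eno1 (0.50) were also called higher on the log2 scale, and Pgam1 (0.38, limma adjusted p = 0.13, SE 0.21) was not, though it was with the replicate number as a block (limma adjusted p = 0.0406). The Eno1 call was lost in 5 of 6 and the Gapdh call in 4 of 6 fits with a library left out, with limma adjusted p up to 0.153 and 0.0962. The count fell to 4 of 8 without the library labelled Abca4Ko retina replicate 3 and likewise without that labelled Abca4Ko rod TRAP replicate 3, when Gapdh, Pgk1 and Eno1 were no longer called, and to 3 of 8 with the authors' totals. Under those totals 2282 genes were higher and 7814 lower, the log2 differences of Pgam1 (−0.16) and Eno1 (−0.038) turned, and Ldha (0.37), Eno2 (−1.39) and Ldhb (−1.42) were called.

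Eno2 was again lower on rod ribosomes in Abca4Ko mice, at 229, 195 and 264 TPM against 321, 479 and 487 TPM, with a log2 difference of −0.85 (limma adjusted p = 0.000696, SE 0.16). Ldhb had 144, 136 and 122 TPM against 247, 348.5 and 303.5 TPM, with a log2 difference of −0.88 (limma adjusted p = 0.000678, SE 0.16). Both genes had all rod TRAP libraries below all retina libraries.

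Within an isoenzyme pair the share of each message does not depend on the scaling between libraries, although it does depend on which table it is taken from. Ldha made up 95.5%, 94.7% and 94.6% of the summed TPM of Ldha and Ldhb in control rod TRAP and 85.98%, 82.3% and 83.1% in control retina. In Abca4Ko mice the shares were 93.3%, 94.6% and 95.4% in rod TRAP and 84.5%, 81.7% and 82.5% in retina. The fractions did not overlap in either genotype, and the genotypes overlapped in both fractions. As a ratio, there were 18.9 ± 2.1 Ldha messages for each Ldhb message in control rod TRAP and 5.23 ± 0.80 in control retina (SD, n = 3 each).

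Eno1 made up 82.5%, 82.1% and 81.6% of the summed TPM of Eno1 and Eno2 in control rod TRAP and 62.8%, 63.3% and 66.1% in control retina. In Abca4Ko mice it was 81.4%, 81.96% and 78.6% in rod TRAP and 68.8%, 66.5% and 64.0% in retina. In TPM the fractions were apart and the genotypes overlapped, as for the dehydrogenases. In scaled counts the Eno1 share was 89.3% to 89.7% in control rod TRAP and 87.2% to 88.6% in Abca4Ko rod TRAP, so there the genotypes lay apart, while in retina they overlapped (72.3% to 74.5% and 72.4% to 76.6%). The Ldha share in scaled counts overlapped between genotypes in both fractions. Counting Eno1b, a near copy of Eno1, with Eno1 raised the mean share to 93.9% ± 0.38 in control rod TRAP and 85.1% ± 0.87 in control retina (SD, n = 3 each), and the fractions stayed apart.

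**Figure D3:**
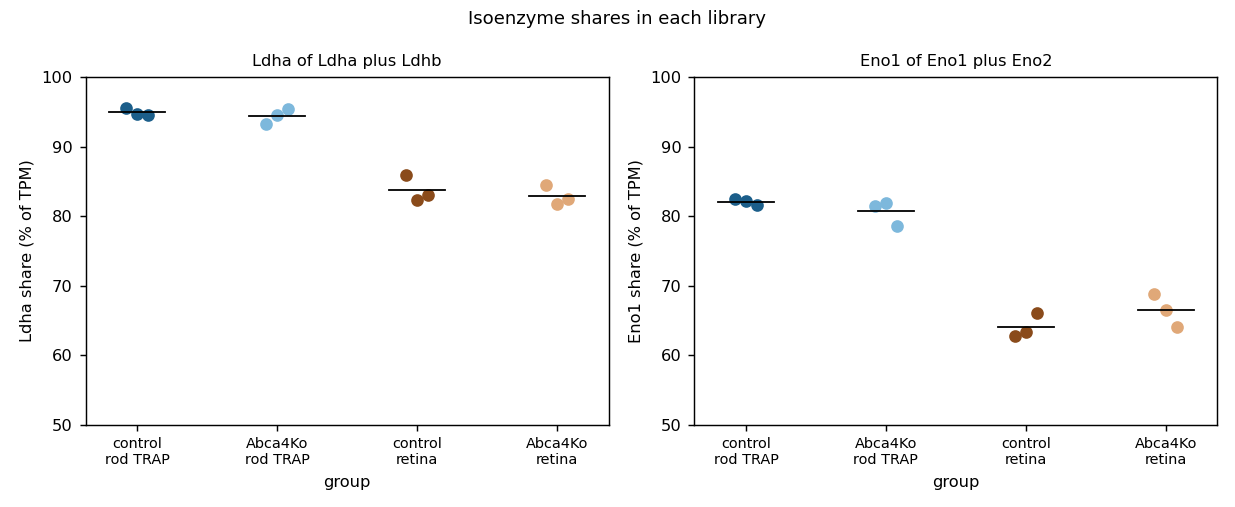
Share of Ldha in the summed TPM of Ldha and Ldhb (left) and of Eno1 in that of Eno1 and Eno2 (right), in percent from 50 to 100, with 1 point for each library and a bar at the mean (n = 3). All rod TRAP libraries lie above all retina libraries for both pairs, and control and Abca4Ko libraries overlap within each fraction in these TPM values.

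Markers of cells other than rods moved with Eno2 and Ldhb between the fractions. In control mice 10 of 10 Müller glia genes were lower in rod TRAP, with a summed level of 95.3 to 124 TPM against 3329.9 to 5342 TPM in retina. The same held for 8 of 8 amacrine genes (39.1 to 47.8 against 461 to 764 TPM), 8 of 8 ganglion cell genes (10.6 to 16.6 against 903 to 983.5 TPM), 9 of 10 cone genes (590.4 to 692 against 2222 to 2529 TPM) and 8 of 9 bipolar genes (84.3 to 92.2 against 833.5 to 1331 TPM). Of all genes tested, 38.8% were called lower. None of these 5 lists had a gene at 0 TPM in either fraction. In rod TRAP of both genotypes, 9 of 10 Müller glia and 6 of 8 amacrine genes passed the filter on low values. So did 7 of 8 ganglion cell, 8 of 9 bipolar and 10 of 10 cone genes. The others needed retina libraries to pass, so their tests favoured a lower value in rod TRAP in advance. The part of other cells in the lower values of Eno2 and Ldhb was not tested.

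The second comparison asked whether loss of Abca4 changed these messages on rod ribosomes. By the limma test 0 of 8 enzymes were called, where 1.13% of 13104 genes tested were called (148 genes, of which 96 or 0.733% were higher and 52 or 0.397% lower). Without adjustment 1368 genes had p under 0.05. The 8 log2 fold changes of Abca4Ko against control lay between −0.20 and 0.11, with 5 of 8 below 0 and a median of −0.05, against 0.0016 over all genes. Markers of other cells also differed in sign here, with 9 of 10 cone genes (median 0.40, 1 called) and 9 of 9 Müller glia genes tested (median 0.28, 0 called) above 0 in Abca4Ko rod TRAP and 6 of 6 amacrine genes tested below 0 (median −0.29, 0 called). Other lists were divided, with 5 of 8 bipolar genes tested (median −0.12), 3 of 7 ganglion cell genes (0.0018) and 3 of 4 red blood cell genes (−0.095) below 0. None of these was called, and the remaining lists had few genes tested. The cone genes summed to 655 to 866 TPM in Abca4Ko rod TRAP and 590.4 to 692 TPM in control rod TRAP, and their part in the enzyme values was not tested.

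Pgk1 had the lowest value, with 719.9, 736 and 838 TPM in Abca4Ko rod TRAP and 875, 909 and 913 TPM in control rod TRAP. Its groups did not overlap, nor did those of Ldha in log2 CPM, as was so for 17.6% of all genes tested in log2 CPM, and in TPM 2 of 8 enzymes (Pgk1 and Eno1) lay apart, both lower, against 14.3% of genes (8.95% lower). For Pgk1 the log2 fold change was −0.20 (limma adjusted p = 0.497, SE 0.093, 95% interval −0.40 to 0.0077). Pkm had 4376.5, 3448 and 3852 TPM in Abca4Ko and 4683, 4601 and 4366 TPM in control, with a log2 fold change of −0.18 (limma adjusted p = 0.73, SE 0.14, 95% interval −0.50 to 0.14). Its groups overlapped through Abca4Ko replicate 1. Ldha had 2001, 2377 and 2506 TPM in Abca4Ko and 2567, 2451 and 2418 TPM in control, with a log2 fold change of −0.06 (SE 0.077, 95% interval −0.23 to 0.11). Gapdh, at 8116, 7349 and 7803 TPM in Abca4Ko and 7223, 8095 and 8221 TPM in control, was at 0.04, and Pgam1, Eno1, Eno2 and Ldhb were at −0.05, −0.12, 0.11 and 0.09 on the log2 scale. Gapdh and Eno2 were just below 0 on log2(TPM + 1), at −0.016 and −0.018.

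A single library decided the call for several enzymes. Without Abca4Ko rod TRAP replicate 1, 3 of 8 enzymes were called lower, namely Pkm (log2 fold change −0.37, limma adjusted p = 0.000308), Eno1 (−0.26, limma adjusted p = 0.00916) and Pgk1 (−0.25, limma adjusted p = 0.0341), and the calls over all genes rose to 329 higher and 265 lower. Leaving out any of the other 5 libraries called 0 of 8, and without the library labelled Abca4Ko rod TRAP replicate 3 Pkm was at −0.13 and Pgk1 at −0.23. In that group replicate 1 had the highest TPM of Gapdh, Pgam1, Eno1, Pkm and Ldhb and the lowest of Pgk1 and Ldha. Replicate 2 had the lowest TPM of Gapdh, Pgam1, Eno1, Eno2 and Pkm, and the SD of Pkm was 466 TPM in Abca4Ko rod TRAP against 165 TPM in control rod TRAP, and that of Pgam1 129 against 9.15 TPM.

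**Figure D4:**
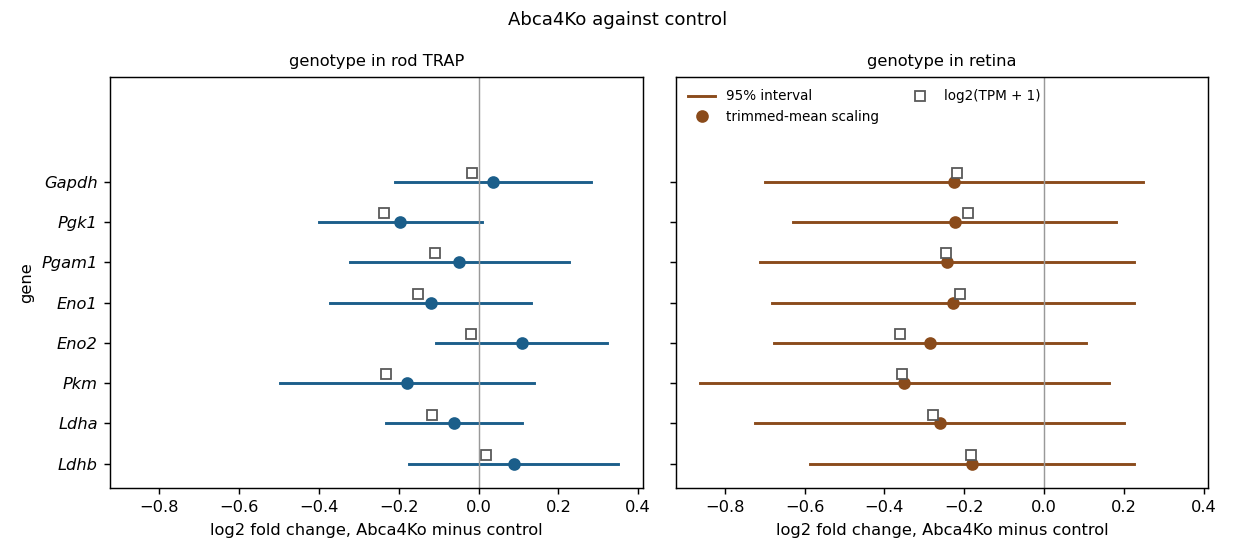
Log2 fold change of Abca4Ko against control for each enzyme in rod TRAP (left) and in retina (right), with points and 95% intervals from limma after trimmed-mean scaling and squares for log2(TPM + 1). All intervals include 0, and all 8 points lie left of 0 in retina.

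In whole retina 0 of 8 enzymes were called between genotypes, where 0.106% of 16964 genes tested were called (18 genes, 0.0884% higher and 0.0177% lower). Without adjustment 2034 genes had p under 0.05. All 8 log2 fold changes were below 0, between −0.35 and −0.18, with a median of −0.24 against −0.02 over all genes, and limma adjusted p ran from 0.485 to 0.655. In TPM, 5 of 8 enzymes (Pgk1, Pgam1, Eno2, Pkm and Ldha) had all Abca4Ko libraries below all control libraries, as had 6.85% of 15013 genes, and 11.7% did not overlap in either direction. On the log2 CPM scale this was so for Eno2 among the 8, where 19.9% of genes did not overlap in either direction.

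Pkm had 2465, 2484.5 and 2355 TPM in Abca4Ko retina and 2978, 3074 and 3302 TPM in control retina, a log2 fold change of −0.35 (limma adjusted p = 0.506, SE 0.23, 95% interval −0.86 to 0.16). Eno2 had 321, 479 and 487 TPM against 491, 567 and 572 TPM, a log2 fold change of −0.29 (limma adjusted p = 0.485, SE 0.18), with the lowest value in Abca4Ko replicate 1. Ldha had 1348, 1557 and 1429 TPM against 1707, 1658 and 1889 TPM, a log2 fold change of −0.26 (limma adjusted p = 0.576, SE 0.21). Pgk1 had 608, 665 and 665.5 TPM against 707, 741 and 762.5 TPM, and Pgam1 had 1186, 1149.7 and 1172 TPM against 1262, 1398 and 1509 TPM. Both lay apart in TPM, with log2 fold changes of −0.22 and −0.24. Gapdh had 6063, 6848 and 5978 TPM against 6710.2, 7026 and 8297 TPM, and Eno1 had 706, 951 and 866 TPM against 829.5, 977 and 1113 TPM. In these genes, as in Ldhb, 1 or more Abca4Ko libraries reached the control range. The enzymes also shared their deviations within a group, since control retina replicate 1 was below its group mean for 8 of 8 genes and replicate 3 above it for 8 of 8. Without the library labelled Abca4Ko retina replicate 3 0 of 8 enzymes were called, with Pkm at −0.21 and Gapdh at −0.06 on the log2 scale.

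Several marker lists of other cells also lay mostly below 0 in Abca4Ko retina, while others were divided, with 0 genes called in any list. The log2 fold change was below 0 for 5 of 5 red blood cell genes (median −0.93), 9 of 10 cone genes (−0.30), 5 of 5 RPE genes (−0.30), 4 of 6 microglia genes (−0.30) and 3 of 4 vascular genes (−0.37). Below 0 were 6 of 9 bipolar (−0.090), 6 of 8 ganglion cell (−0.10) and 5 of 10 Müller glia genes (0.012). So were 4 of 8 amacrine (−0.042) and 2 of 4 horizontal cell genes (−0.053). The 20 rod genes had a median of −0.056 with 12 below 0, and summed to 111282 to 147270 TPM in Abca4Ko retina and 132648 to 146652 TPM in control retina. The red blood cell genes summed to 383 to 603 TPM against 541 to 1235 TPM and the cone genes to 1515 to 2180 TPM against 2222 to 2529 TPM, and none of the genes of these lists was at 0 TPM in either group. Their part in the enzyme values was not tested.

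The interaction, which asks whether the genotype difference itself differed between rod TRAP and retina, called 0 of 8 enzymes and 1 gene of 17273 (0.00579%), with 1952 genes at p under 0.05 before adjustment. Eno2 had the largest value among the 8, a log2 difference of 0.37 (limma adjusted p = 0.468, SE 0.18), and was at 0.30 without both libraries labelled Abca4Ko replicate 3, where 0 of 8 were called. Ldhb was at 0.24, Gapdh at 0.23, Ldha and Pgam1 both at 0.17, Pkm at 0.15, Eno1 at 0.082 and Pgk1 at 0.0011, with limma adjusted p from 0.689 to 0.999, and the values of Pgk1, Eno1 and Pkm turned when some libraries were left out.

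Of 9 upper glycolysis enzymes, 5 were higher and 3 lower in control rod TRAP than in retina. Of all genes tested there, 75.4% were called (36.6% higher and 38.8% lower). Hexokinase 2 (Hk2) was at 379.8 ± 49 TPM against 143 ± 17 TPM, with a log2 difference of 1.71 (limma adjusted p = 4.92e-08, SE 0.12), and hexokinase 1 (Hk1) at 1486 ± 96 against 912 ± 53 TPM, with 1.00. Both start glycolysis by phosphorylating glucose. The phosphofructokinases, which commit sugar to the pathway, divided into platelet-type Pfkp (0.79) and liver-type Pfkl (0.72), which were higher, and muscle-type Pfkm (−1.99, limma adjusted p = 5.52e-08, SE 0.14), at 23.3 ± 0.40 TPM against 103 ± 21 TPM, which was lower. Tpi1 (−0.43) and Aldoc (−0.31) were lower too, and Aldoa, the main aldolase here at 4389 TPM in control rod TRAP, was higher by 0.36 (limma adjusted p = 0.024). It was not called with the median of ratios (limma adjusted p = 0.063) or on log2(TPM + 1) (limma adjusted p = 0.519). With the authors' totals Aldoa was called in the other direction, lower at −0.29 (limma adjusted p = 0.0279). With those totals Hk2 (1.07), Hk1 (0.36), Pfkm (−2.63), Tpi1 (−1.08) and Aldoc (−0.95) were called in the same direction, Pfkp (0.14, limma adjusted p = 0.242) and Pfkl (0.075, limma adjusted p = 0.526) were no longer called, and Gpi1, not called before (0.15), was called lower (−0.49).

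In Abca4Ko mice 4 upper enzymes were higher and 1 was lower in rod TRAP than in retina, with Hk2 at 1.57, Hk1 at 1.03, Pfkl at 0.80, Pfkp at 0.69 and Pfkm at −1.88 on the log2 scale. Of all genes tested in these mice, 64.1% were called (30.4% higher and 33.7% lower). Pfkl (0.26) and Pfkp (0.15) were not called there with the authors' totals. With the median of upper enzymes at 0.36 in control and 0.39 in Abca4Ko, against 0.47 and 0.53 for the lower ones, both sets lay above the median of all genes. None of the 9 was called between genotypes, with or without the libraries labelled Abca4Ko replicate 3, and their median log2 fold change in retina was −0.29, with 8 of 9 below 0. With each library left out in turn, the number called between genotypes ranged from 0 to 2 in rod TRAP and stayed at 0 in retina.

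Of 9 further isoenzymes of the same steps, 6 passed the filter on low values in control mice, with 2 higher and 3 lower in rod TRAP. Over all genes tested 36.6% were higher and 38.8% lower. Bpgm, which makes and breaks bisphosphoglycerate, was higher by 0.49 (99.0 ± 3.6 against 85.1 ± 7.0 TPM) but at −0.16 with the authors' totals, and the testis enolase-like Eno4 by 0.84 at 2.83 ± 0.15 against 1.93 ± 0.61 TPM. The Eno4 call was lost with the authors' totals (0.29, limma adjusted p = 0.293) and on log2(TPM + 1) (0.41, limma adjusted p = 0.11), and in Abca4Ko mice its value was −0.067. The muscle enolase Eno3 (−0.64), the testis Gapdhs (−0.96) and Ldhd, which acts on D-lactate (−2.06), were lower. Gapdhs (at most 5 scaled counts in control rod TRAP) and Ldhd (at most 3) passed the filter only through retina. Their tests thus favoured a lower value in rod TRAP in advance. Gapdhs, Pgk2, Pklr and Ldhc were listed at 0 TPM in all rod TRAP libraries. In retina Gapdhs, Pgk2 and Pklr were also at 0 TPM in all libraries, and Ldhc was in all but control retina replicate 2 (0.4 TPM).

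Of 7 genes for transport of the end products, 2 were called higher and 3 lower in control rod TRAP. This is near the background, since 75.4% of all genes tested were called (36.6% higher and 38.8% lower). The lactate carrier Slc16a1 (MCT1) was at 216 ± 8.4 TPM in control rod TRAP and 76.5 ± 16 TPM in control retina, higher by a log2 difference of 1.83 (limma adjusted p = 2.93e-08, SE 0.12), and Slc16a3 (MCT4) was higher by 0.65. Slc16a7 (MCT2) was listed at 0 TPM in all rod TRAP libraries and had a log2 difference of −2.05 in scaled counts, and Slc16a8 (MCT3, −0.79) was at most 0.133 TPM on average there. In both genotypes Slc16a7 passed the filter on low values only through retina, so its test favoured a lower value in rod TRAP in advance. Mpc1, a subunit of the mitochondrial pyruvate carrier, had a log2 difference of −1.40 (41.5 ± 5.4 against 139 ± 8.3 TPM), whereas its partner Mpc2 (0.17, limma adjusted p = 0.251) was not called. Bsg, the chaperone of the lactate carriers, was not called either (0.16, limma adjusted p = 0.342), at 1279.8 ± 51 against 1505 ± 223 TPM. In Abca4Ko mice the same 5 carriers were called in the same directions, where 64.1% of all genes tested were called. Between genotypes 0 of 6 tested in rod TRAP and 0 of 7 tested in retina were called. With the authors' totals Slc16a1 (1.18), Slc16a7 (−2.40), Slc16a8 (−1.30) and Mpc1 (−2.02) were called in the same direction in control mice. Slc16a3 was then at 0.0044 (limma adjusted p = 0.98) and was also not called on log2(TPM + 1) (limma adjusted p = 0.0515), and Bsg (−0.49, limma adjusted p = 0.00435) and Mpc2 (−0.47, limma adjusted p = 0.00455) were called lower.

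The 3 genes outside the 8 whose levels followed each enzyme best over the 12 libraries, by Pearson r of log2(CPM + 0.5) among 10288 genes with at least 5 TPM on average, were named by rule. The fractions separate most of the points, so each r is a description of 12 libraries that share their scaling. For Gapdh they were 3 of its own copies, Gm5559, Gm2574 and Gm10358 (r 0.997, 0.995 and 0.995). For Eno1 they were Eno1b and Gm4735, also copies, and Syvn1 (r 0.998, 0.997 and 0.981), and for Pgk1 they were Pfkl, its copy Gm5537 and Slc25a25 (r 0.9796, 0.979 and 0.978). Pgam1 was followed by Aldoa, Tspan5 and Atp5c1 (r 0.984, 0.964 and 0.955), Pkm by Arl4d, Psme3ip1 and Rbbp4 (r 0.984, 0.984 and 0.9803), and Ldha by Cnnm4, Ankrd33 and Daxx (r 0.991, 0.991 and 0.989). Eno2 was followed by Agpat1, Rnf187 and Mt2 (r 0.993, 0.991 and 0.991), and Ldhb by Rab3a, Nt5m and Olfm2 (r 0.994, 0.994 and 0.991). Pfkl and Aldoa are enzymes of upper glycolysis.

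Several of these genes have processed pseudogenes or near-identical copies, to which reads of the parent can be assigned. A search of the GENCODE M21 transcripts on GRCm38 found 168 copies of Gapdh with at least 90% identity, 41 of them at 98% or more, and 11 of Ldha, 8 of Pkm, 6 of Eno1, 4 of Pgk1, 3 of Pgam1, 1 of Ldhb and 0 of Eno2. In the scaled count table the copies held 90.8% to 91.3% of the summed value of Gapdh and its copies, and the range in TPM was 20.2% to 30.2%. Gapdh itself had a median of 1.29 scaled counts for each TPM, where the other 7 enzymes had between 10.6 and 31.1. For Eno1 the copies held 41.6% to 42.8% of scaled counts but 67.7% to 72.0% of TPM. Eno1b, which is coding and 99.48% identical over 1736 bases, was at 2485 ± 83 TPM in control rod TRAP, above Eno1 itself at 1057 ± 19 TPM (SD, n = 3 each).

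Pgam1-ps2, identical to Pgam1 over 765 bases, held 2205 ± 73 scaled counts in control rod TRAP and was listed at 0 TPM, and the copies of Pgam1 together took 14.3% to 15.7% of scaled counts. The copies of Pgk1 took 11.2% to 12.9% of scaled counts and 12.0% to 29.1% of TPM, with Gm5537 identical to the gene over 1252 bases. Among the Pkm copies Gm6560 held 1724 ± 111 scaled counts in control rod TRAP, and all of them took 2.13% to 2.38%. For Ldha the share was 0.570% to 0.927%, Eno2 had no copy, and the copy of Ldhb had no value here. The levels of Gapdh, Eno1, Pgk1 and Pgam1 are thus uncertain, those of Eno2, Pkm, Ldha and Ldhb less so. With each gene summed with its copies, 8 of 8 enzymes were called in the control fraction comparison and 7 of 8 in Abca4Ko, with Gapdh at 0.46 and 0.56 and Eno1 at 0.52 and 0.51 on the log2 scale, and 0 of 8 were called between genotypes.

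**Figure D5:**
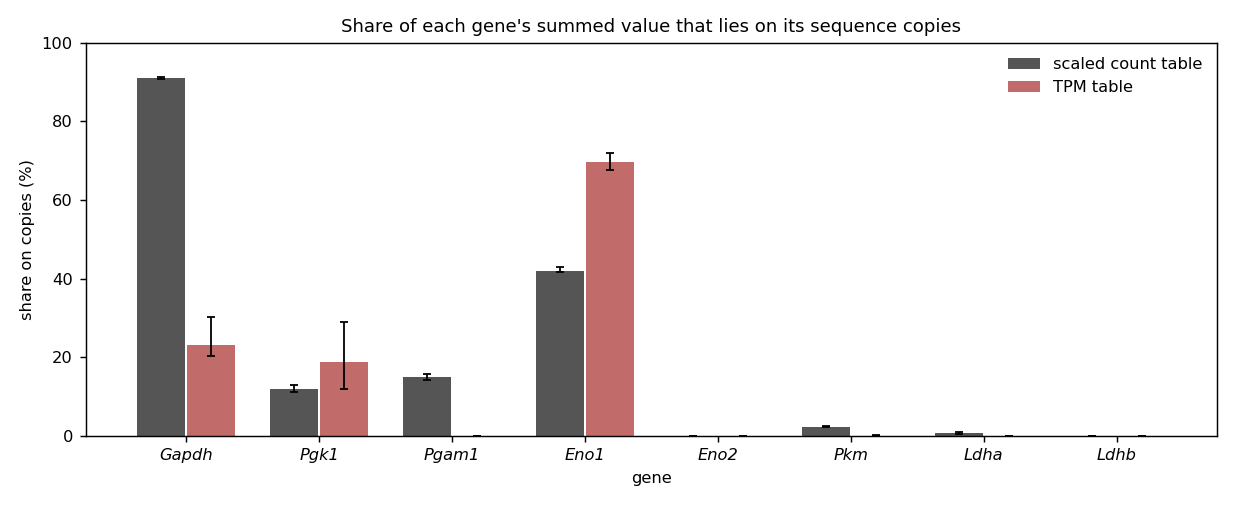
Share of the summed value of each enzyme gene and its sequence copies that lies on the copies, in percent, for the scaled count table (grey) and the TPM table (red). Bars are medians over 12 libraries and lines run from the lowest to the highest library, with Gapdh at 91.0% of scaled counts and 23.1% of TPM. Eno2 is at 0 because it had no copy. Ldhb is drawn at 0 because its copy had no value, so its share is not known.

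A single Ldha copy was called between genotypes in the scaled counts. Gm11814, a pseudogene with 92.16% identity to Ldha over 638 bases and singled out after its values were seen, had 70, 92 and 75 scaled counts on Abca4Ko rod ribosomes against 5, 8 and 4 in controls, a log2 fold change of 2.63 (limma adjusted p = 9.72e-05, SE 0.20). In retina it had 60, 63 and 60 against 9, 2 and 6, a log2 fold change of 2.28 (limma adjusted p = 0.00773, SE 0.26). In both fractions Gm11814 passed the filter on low values only through the Abca4Ko libraries. Its tests thus favoured a higher value in Abca4Ko in advance, and their p-values cannot be taken at face value. The genotypes did not overlap in either fraction. Gm11814 was the only gene called among 69 copies tested in rod TRAP and 73 in retina. The TPM table does not show this difference, since Gm11814 was listed there at 0 in all libraries but 1, control rod TRAP replicate 3, at 0.2 TPM. The retina call was lost without control retina replicate 3 (limma adjusted p = 0.12), and with an Abca4Ko library left out the gene did not pass the filter on low values. These counts are small beside Ldha, which was called in neither fraction.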

How the data were processed

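Polyadenylated RNA of 12 libraries was sequenced, 3 in each of 4 groups taken from the sample labels. The submitters' processing notes name CASAVA 1.8.2, HISAT2, DESeq2, edgeR and the mouse build GRCm39, without roles or order, and annotation and handling of reads that map to several places are not given in the sources used here. The deposited scaled counts, treated as a score, were whole numbers that the authors had scaled per library to a common total within each fraction, as read from their sums, so no count model was used. The deposited TPM values were made by the authors, corrected for gene length and given to 1 decimal. The read totals before scaling are not known.

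Genes with at least 10 scaled counts in at least 3 libraries of a comparison were scaled by trimmed means of M values, computed directly (trims 0.3 and 0.05), and tested as log2(CPM + 0.5) with limma 3.58.1 in R 4.3.3 (trend, robust, two-sided, Benjamini-Hochberg over all genes tested, threshold 0.05), after the procedure had been tested on simulated data. The added 0.5 makes fold changes of low genes too small. Non-overlap in TPM was counted over genes with at least 1 TPM in at least 3 libraries.

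The 8 members and all lists were chosen with earlier results of these data known. All members were named in every comparison, from each list up to 4 called genes per direction whose groups did not overlap, and for each member the 3 genes of highest r; the remaining list genes are given to complete their list. Copies were sought with blastn 2.17.0 (at least 90% identity over at least 200 bases and 50% of the copy). Sequences and positions are from the GRCm38 reference, not the build of the files. Samples of the same replicate number deviated together between fractions (r of their deviations over 10296 genes 0.247 to 0.457 in control and 0.263 to 0.556 in Abca4Ko), so the numbers of the labels were taken to pair rod TRAP and retina. Of the 3 rod TRAP samples, 3 in control and 2 in Abca4Ko correlated best with their own number. Abca4Ko rod TRAP replicate 2 correlated better with retina replicate 3 (r 0.351) than with its own (0.263). The main fits did not use the pairing. Between genotypes the r values were −0.189 to −0.00645 in rod TRAP and −0.521 to −0.106 in retina, and nothing pairs those samples. Alternatives varied scaling, table, filter, pseudocount, prior, replicate block and libraries. Summing members with their copies, and the interaction without both libraries labelled Abca4Ko replicate 3, were chosen after seeing the data.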

Additional observations from a re-analysis of the deposited data

How the results depend on the processing

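Between genotypes 0 of 8 enzymes were called in retina under all 15 alternatives and 0 of 8 in the interaction under all 21. In rod TRAP the count was 0 under all alternatives but 1, and ranged from 0 to 3 when each library was left out, with 3 without Abca4Ko rod TRAP replicate 1. In the fraction comparison of control mice the 8 calls became 4 with the authors' totals and 5 on log2(TPM + 1), both of which lower the median of all genes, and ranged from 7 to 8 without each library. Ldha was not among the 4, which held Pkm, Eno2, Ldhb and Pgam1, the last now called in the other direction, lower at −0.35. Pgam1 also lost its call under other alternatives with all libraries kept. In Abca4Ko mice the 7 calls became 3 with the authors' totals and ranged from 4 to 7 without each library. Where the lone libraries decide a call, the cause was not tested.

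The direction turned with the authors' totals for Gapdh (−0.22), Pgk1 (−0.0029), Pgam1 (−0.35) and Eno1 (−0.14) in the control fraction comparison and for Pgam1 (−0.16) and Eno1 (−0.038) in that of Abca4Ko, and on log2(TPM + 1) for Pgam1 (−0.013) in control. In rod TRAP between genotypes, values near 0 turned for Gapdh (−0.016) and Eno2 (−0.018) on log2(TPM + 1) and for Gapdh summed with its copies (−0.0045). Without each library in turn Gapdh ranged from −0.094 to 0.13, Pgam1 from −0.20 to 0.082 and Ldhb from −0.049 to 0.19. In the interaction, Pgk1 turned to −0.047 on log2(TPM + 1), −0.049 with the median of ratios and −0.032 summed with its copies, and without libraries Pgk1 ranged from −0.14 to 0.080, Eno1 from −0.054 to 0.15 and Pkm from −0.016 to 0.29. With the replicate block the count in Abca4Ko rose to 8, through Pgam1, and no other call of an enzyme changed. Between genotypes, where the samples share only a number, the block called 97 genes higher and 54 lower in rod TRAP and 35 higher and 11 lower in retina, and with 3 shared numbers 0 samples correlated best with their own.

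Over all genes the 96 higher and 52 lower calls between genotypes in rod TRAP became 31 and 11 without trend and robust prior, 40 and 18 on log2(TPM + 1), 62 and 32 with all libraries in a single fit, and between 24 and 6 (without control rod TRAP replicate 2) and 329 and 265 (without Abca4Ko rod TRAP replicate 1) with a library left out. The 15 and 3 in retina became 46 and 16 in that single fit, 33 and 5 on log2(TPM + 1), 26 and 7 without the filter, 11 and 1 with the authors' totals, and 1 and 0 without control retina replicate 3 or without Abca4Ko retina replicate 1. The 4872 and 5408 of the Abca4Ko fraction comparison became 4140 and 2455 without Abca4Ko retina replicate 2. The interaction called 2 and 1 on log2(TPM + 1). The 3 libraries a group and an unknown depth limit all of these values, and the intervals of the genotype comparisons reach −0.86 in retina.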
